A study of Rattus norvegicus with 6 samples.

Results

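Astrocytes are the glial cells that clear glutamate from the synaptic cleft, buffer potassium and water, and pass small molecules to each other through gap junctions. In cultures of embryonic hippocampus they grow beside the neurons, and part of their gene expression comes on only as they mature. The 10 genes described here are commonly used markers of these cells: Gfap, S100b, Aldh1l1 and Sox9, which identify the cell or its lineage, Slc1a2, Slc1a3 and Glul, which take up and convert glutamate, Aqp4 and Gja1, which form water channels and gap junctions, and Aldoc, a glycolytic enzyme. They were chosen by name, 8 by the gene symbol in the count table and 2 (Slc1a2 and Aldh1l1) by the gene description, and all 10 of the 26405 genes in the table that were looked for had enough counts to be tested. Several of them are not exclusive to astrocytes, since Slc1a3 and Glul are also made by other glia and Sox9 by neural progenitors.

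RNA was sequenced from 6 primary cultures of rat hippocampal neurons. In 3 S-SCAM KD cultures the neurons received a lentivirus with an shRNA against S-SCAM/MAGI2, a synaptic scaffolding protein encoded by Magi2, and 3 Control cultures received the empty shRNA vector and are labelled WT. All cultures were transduced at DIV2 (day 2 in vitro) and harvested at DIV9, no other allele or agent was named, and the promoters of the vector are not specific to neurons. The labels call the cell type hippocampal neurons and the replicates biological. Total counts on genes were between 18350062 and 29654651 in the knockdown libraries and between 13061705 and 24874466 in the control libraries. Levels are given as CPM, counts divided by the TMM-scaled library size and set to a common scale. Fold changes are log2 values of knockdown over control from edgeR. Their standard error (SE) was derived as the absolute log2 fold change divided by the square root of the edgeR F statistic. The main test was the quasi-likelihood test of edgeR, adjusted by Benjamini-Hochberg over the 13917 genes tested with a threshold of 0.05, and DESeq2 was run beside it. Magi2, the targeted gene, had 30.4, 21.1 and 40.4 CPM in knockdown replicates 1 to 3, against 82.8, 74.7 and 95.8 CPM in control replicates 1 to 3 (log2 fold change -1.46, SE 0.27, edgeR adjusted p = 0.228, DESeq2 adjusted p = 0.00124). All 13 neuron markers were detected in every library, with summed levels of 5428 to 7755 CPM in knockdown and 5486 to 8983 CPM in control cultures. Knockdown replicate 2 was far from the rest, at -73.7 on the first principal component of all tested genes (41.6% of the variance) while the other 5 libraries lay between -24.2 and 30.4, and each member is also given without that culture below.

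Compared as unpaired groups, no astrocyte marker passed the test. By edgeR 0 of 10 members were called (background 0% of all genes, with a smallest adjusted p of 0.228 among all genes and 0.406 among the members), by limma-voom 0 of 10 were called (background 0%), and by DESeq2 0 of 10 (background 1.07% of genes called lower and 0.251% called higher, smallest member adjusted p 0.192). At an unadjusted edgeR p under 0.05 there was 1 member, Slc1a2, on the lower side, where 7.14% of all genes were on that side and 3.69% on the higher side. The mean was lower in knockdown cultures for 9 of 10 members, where 52.4% of all genes had a negative fold change. The median log2 fold change of the members was -0.56, against a median of -0.02 and quartiles of -0.34 and 0.23 over all genes tested. Levels of all members are drawn by culture in the plot of CPM values.

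**Figure D1:**
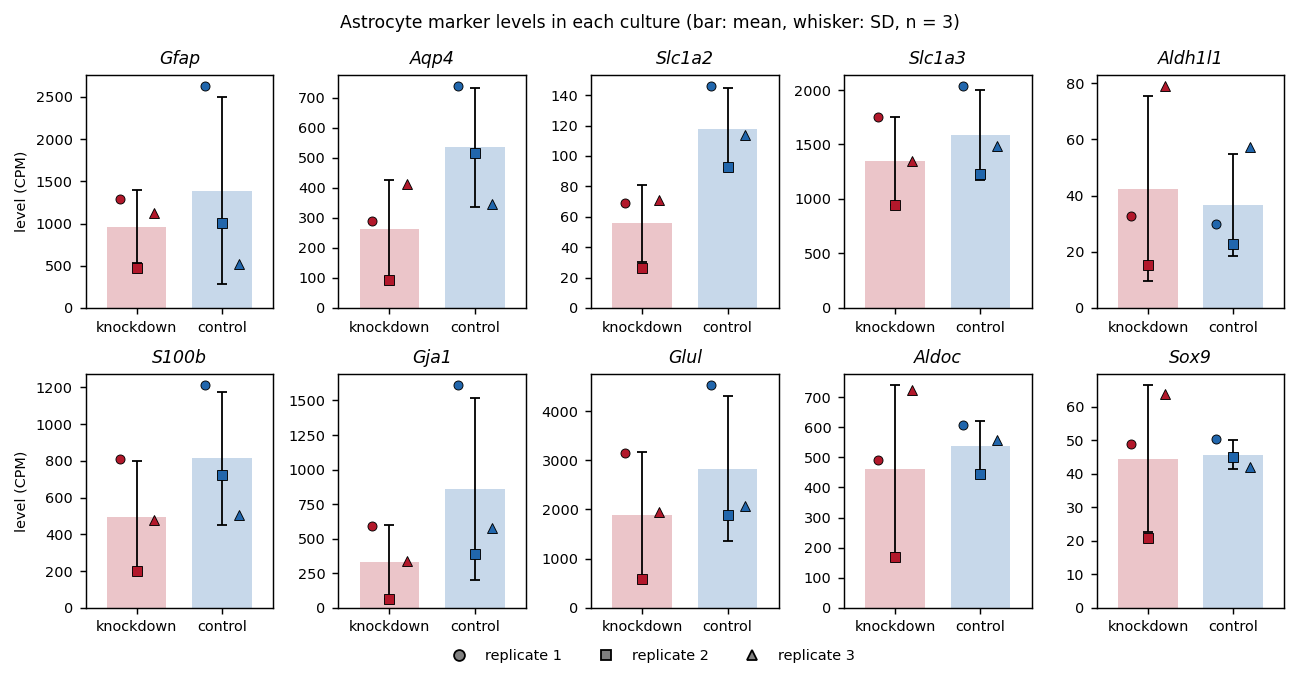
Level of each of the 10 astrocyte markers in CPM (y axis, from 0, its own scale for each gene) in the 3 knockdown and the 3 control cultures. Bars are means, whiskers SD (n = 3), and symbols single cultures by replicate number. Knockdown replicate 2 is the lowest point for all 10 genes, control replicate 1 is the highest for 7, and the groups stay apart for Slc1a2 alone.

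In this unpaired comparison the direction of the median depended on 2 cultures. Knockdown replicate 2 had the lowest level of all 6 libraries for 10 of 10 members, where 25% of all genes had their lowest level there, and control replicate 1 had the highest for 7 of 10, where the share over all genes was 18.6%. Knockdown replicate 3 had the highest level of the other 3 members, Aldh1l1, Aldoc and Sox9 (14.1% of all genes). Without control replicate 1 the median log2 fold change of the members was -0.10, and without knockdown replicate 2 it was -0.14. Without both cultures it was 0.23, and 3 of 10 members then had a lower mean. That pair of cultures was chosen after the values were seen. Knockdown replicate 1 lay within the range of the controls for 8 members and below it for 2, and knockdown replicate 3 lay within it for 4, below it for 3 and above it for 3.

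The cultures differed widely in the amount of astrocyte marker RNA also within each group. The 10 genes together took 0.855%, 0.250% and 0.679% of all counts in knockdown replicates 1 to 3, against 1.42%, 0.594% and 0.640% in control replicates 1 to 3. The SD of the log2 level between cultures had a median of 1.05 over the members in knockdown and 0.59 in control cultures, whereas over all genes it was 0.32 in knockdown and 0.28 in control cultures. In bulk RNA, fewer astrocytes and less of each transcript per astrocyte cannot be told apart.

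**Figure D2:**
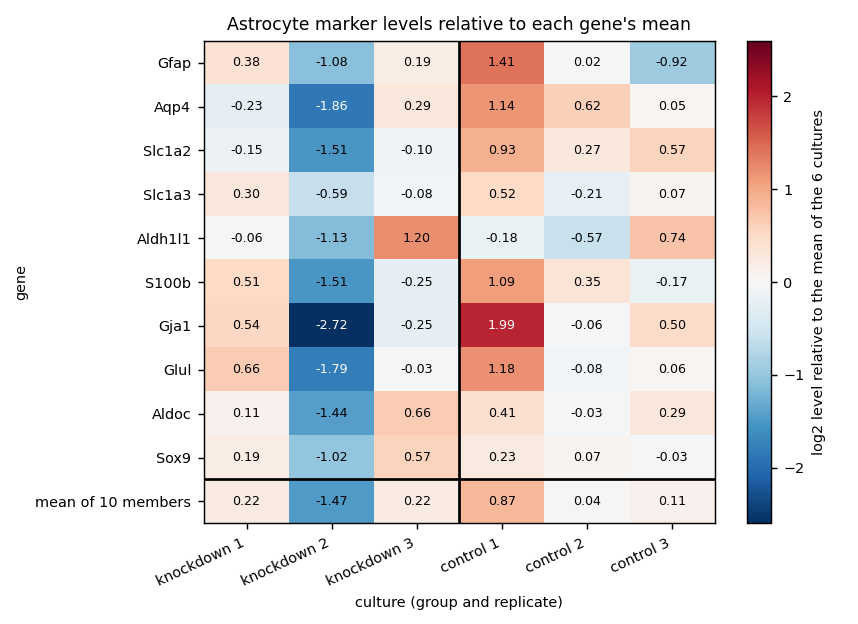
Log2 level of each marker (rows) in each culture (columns) relative to that gene's mean over the 6 cultures, with the mean of the 10 members in the last row and a vertical line between the knockdown and the control cultures. The mean of the members is -1.47 in knockdown replicate 2 and 0.87 in control replicate 1, and between 0.04 and 0.22 in the other 4 cultures.

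Among the genes that identify the cell, Gfap encodes the main intermediate filament protein of astrocytes. It lies on chromosome 10 of rn5 (90763149 to 90771847). Gfap had 1288, 469 and 1130 CPM in knockdown cultures, against 2633, 1002 and 525 CPM in control cultures. The groups overlapped, and the highest and the lowest control differed 5.02-fold (log2 fold change -0.53, SE 0.58, edgeR adjusted p = 0.766). Without control replicate 1 the fold change of Gfap was 0.34, and without knockdown replicate 2 it was -0.16. S100b, a calcium-binding protein encoded on chromosome 20, had 809, 199 and 479 CPM in knockdown cultures, against 1211, 724 and 505 CPM in control cultures. Knockdown replicates 2 and 3 were below every control and replicate 1 was not (log2 fold change -0.72, SE 0.50, edgeR adjusted p = 0.634). The fold change of S100b was -0.30 without knockdown replicate 2 and -0.31 without control replicate 1.

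Aldh1l1, a folate enzyme of the astrocyte cytoplasm, was the member with a higher mean in knockdown cultures. Its levels were 32.8, 15.4 and 79.2 CPM in knockdown cultures, against 30.1, 22.8 and 57.3 CPM in control cultures, so the knockdown group held both the lowest and the highest culture (log2 fold change 0.21, SE 0.57, edgeR adjusted p = 0.914). The fold change of Aldh1l1 was 0.64 without knockdown replicate 2, -0.61 without knockdown replicate 3, -0.03 without control replicate 2 and -0.06 by limma-voom. Sox9, a transcription factor of the glial lineage, had 48.8, 20.8 and 63.8 CPM in knockdown cultures, against 50.3, 44.9 and 41.9 CPM in control cultures. The controls of Sox9 were close together, with an SD of 0.13 on the log2 scale against 0.83 in knockdown cultures, and the group means differed little (log2 fold change -0.04, SE 0.37, edgeR adjusted p = 0.977). Without knockdown replicate 2 the fold change of Sox9 was 0.34 and without control replicate 1 it was 0.04. The gene model counted for Sox9 had 59.0% of the length of the RefSeq gene on the later assembly GRCr8.

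Of the glutamate handling genes, Slc1a2 was the member whose groups did not overlap. Slc1a2 encodes GLT-1 (EAAT2), the transporter that removes most synaptic glutamate in the adult forebrain and that increases in rodent astrocytes as they mature beside neurons. It had 69.2, 26.5 and 71.3 CPM in knockdown cultures, against 146, 92.8 and 114 CPM in control cultures. All 3 knockdown cultures were below all 3 controls, and the knockdown mean was 47.3% of the control mean (55.7 ± 25.3 and 118 ± 27.0 CPM, SD, n = 3 each). The log2 fold change was -1.08 (SE 0.37, edgeR adjusted p = 0.406, DESeq2 adjusted p = 0.192), so that Slc1a2 did not pass the threshold in these unpaired fits. The study itself, with DESeq2, listed Slc1a2 among its differentially expressed genes as lower. A fit with the replicate number as a block is given in the last section. One of 10 members was thus separated on the lower side and 0 on the higher side, where 10.2% of all genes were separated with knockdown lower and 7.42% with knockdown higher. The fold change of Slc1a2 was -0.71 without knockdown replicate 2 and -0.56 without both that culture and control replicate 1. The gene model counted for Slc1a2 on rn5 (chromosome 3, 99282853 to 99309441) covered 26589 bases, 20.4% of the length of the RefSeq gene on GRCr8, and reads outside the model were not counted.

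Slc1a3 encodes GLAST (EAAT1), the second astrocytic glutamate transporter, which is present earlier in development and in radial glia. It had 1749, 945 and 1344 CPM in knockdown cultures, against 2040, 1230 and 1489 CPM in control cultures. Its groups overlapped, and it had the smallest spread of the members among knockdown cultures, with an SD of 0.45 on the log2 scale (log2 fold change -0.24, SE 0.30, edgeR adjusted p = 0.796). The fold change of Slc1a3 was 0.00 without knockdown replicate 2 and -0.01 without control replicate 1, where by DESeq2 it was 0.02. Glul, glutamine synthetase, which turns the glutamate taken up into glutamine, had 3138, 575 and 1951 CPM in knockdown cultures, against 4522, 1891 and 2079 CPM in control cultures. Knockdown replicates 1 and 3 lay within the range of the controls (log2 fold change -0.58, SE 0.57, edgeR adjusted p = 0.736). The fold change of Glul was -0.12 without knockdown replicate 2 and -0.07 without control replicate 1. The gene model counted for Glul had 13.9% of the length of the RefSeq gene on GRCr8, which has start sites far apart (windows from 68519250 and 68575816). Both lengths include introns. How much of the transcript was not counted, also for the ratio to Gja1 below, was therefore not known.

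The promoter windows of the transporter genes are printed because the ratio of their counts in each library is compared between the groups below. Each holds 250 bases before and 50 after a start site in RefSeq, on GRCr8, which is not the build of the counts. Of the 10 members 9 had a window in the table used here, with 14 windows in all, and Sox9 had none. The window of Slc1a2 is at chr3:109459859-109460158 on the plus strand and that of Slc1a3 at chr2:59557759-59558058 on the minus strand, both being one of several start sites of their gene. Capitals mark TGCCAA, the reverse complement of TTGGCA.
Slc1a2: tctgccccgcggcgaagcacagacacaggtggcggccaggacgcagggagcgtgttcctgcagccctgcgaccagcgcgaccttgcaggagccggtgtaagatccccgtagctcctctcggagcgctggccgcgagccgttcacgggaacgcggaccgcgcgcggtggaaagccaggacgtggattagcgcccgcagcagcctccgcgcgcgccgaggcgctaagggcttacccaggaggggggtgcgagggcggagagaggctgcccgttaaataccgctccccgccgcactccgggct
Slc1a3: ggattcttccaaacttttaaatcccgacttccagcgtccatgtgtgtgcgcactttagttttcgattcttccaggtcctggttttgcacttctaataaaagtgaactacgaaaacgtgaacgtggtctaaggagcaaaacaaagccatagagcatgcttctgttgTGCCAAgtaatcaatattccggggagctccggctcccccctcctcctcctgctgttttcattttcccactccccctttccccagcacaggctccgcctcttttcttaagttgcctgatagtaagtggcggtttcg
TTGGCA is a core recognition motif of nuclear factor I (NFI), a family of transcription factors that take part in astrocyte differentiation. These letters stood on either strand in windows of 3 members, Slc1a3, Glul and S100b (5 of 14 windows), and in 14.0% of all 33469 windows. The windows of Slc1a3 overlap and hold the same single site. The 5 windows therefore count that site repeatedly and cannot be set against the share over all windows. None of the 14 member windows held a TATA box (TATAAA), which 14.2% of all windows held on either strand. The same was true of the STAT motif TTCNNNGAA, which stood in 8.87% of all windows. Of the motifs of SOX factors, the longer (ACAATGG) stood in 3.9% of all windows and in no member window. The shorter SOX motif (ATTGTT) stood in 11.7% of all windows and likewise in no member window. The palindromic E-box CACGTG was in 6.42% of all windows and in 0 of those of the members.

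Aqp4 and Gja1 had the lowest fold changes beside Slc1a2. Aqp4, the water channel of astrocyte endfeet, had 288, 92.2 and 413 CPM in knockdown cultures, against 740, 516 and 348 CPM in control cultures. Knockdown replicate 3 was above control replicate 3, and the other knockdown cultures were below every control (log2 fold change -1.02, SE 0.50, edgeR adjusted p = 0.499). The fold change of Aqp4 was -0.58 without knockdown replicate 2 and -0.30 without that culture and control replicate 1. Gja1, connexin 43, the main gap junction protein of astrocytes, had 592, 60.9 and 341 CPM in knockdown cultures, against 1609, 390 and 574 CPM in control cultures. It had the widest range of the members, 26.4-fold between control replicate 1 and knockdown replicate 2, where it was at 15.6% of the lowest control (log2 fold change -1.37, SE 0.76, edgeR adjusted p = 0.549). Without knockdown replicate 2 the fold change of Gja1 was -0.85, without control replicate 1 it was -0.54, and without both that culture and knockdown replicate 2 it was -0.05. Unpaired DESeq2 gave Gja1 an adjusted p of 0.63. Each knockdown culture had less Gja1 than the control culture of the same replicate number. A fit with that number as a block, given in the last section, called Gja1 by DESeq2 and not by edgeR. Aldoc, aldolase C, had 491, 168 and 723 CPM in knockdown cultures, against 608, 446 and 558 CPM in control cultures. Its controls spanned 1.36-fold and its knockdown cultures 4.30-fold (log2 fold change -0.22, SE 0.45, edgeR adjusted p = 0.883), and without knockdown replicate 2 the fold change of Aldoc was 0.21.

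**Figure D3:**
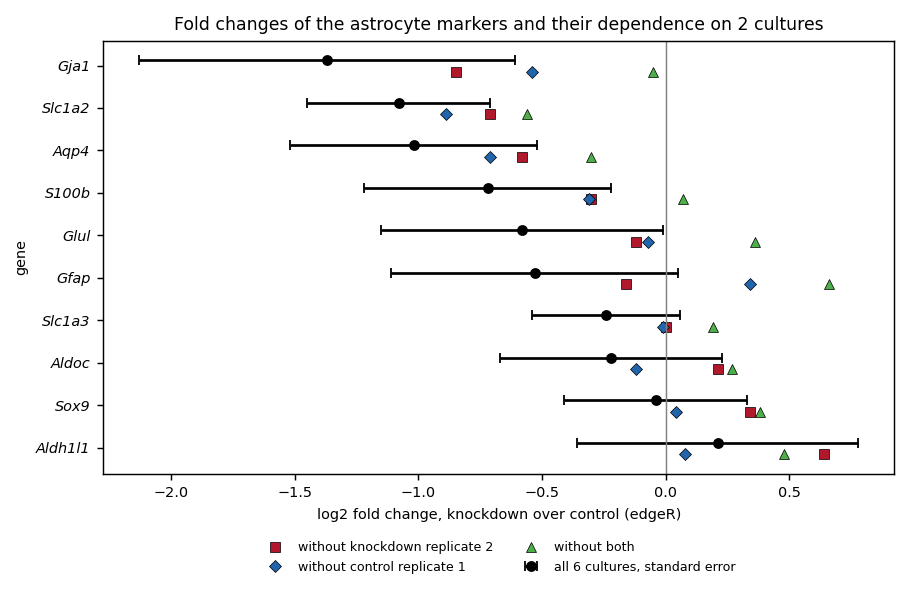
Log2 fold change of knockdown over control (x axis) from edgeR for each marker (rows), with all 6 cultures (black points, bars are SE), without knockdown replicate 2 (red squares), without control replicate 1 (blue diamonds) and without both (green triangles). With all cultures 9 of 10 points are below 0, and without both cultures Gja1, Slc1a2 and Aqp4 remain below 0 at -0.05, -0.56 and -0.30.

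The ratio of counts of 2 members in the same library does not depend on library scaling or on how many astrocytes a culture held, as long as both genes come from the same cells. Slc1a3, Glul and Sox9 are also made by other cells. Whether the condition holds for the pairs below was not tested. Slc1a2 counts were 3.96%, 2.81% and 5.31% of the Slc1a3 counts in knockdown cultures, against 7.17%, 7.54% and 7.65% in control cultures. The control cultures, whose Slc1a2 level itself spanned 1.58-fold, thus had nearly one ratio, and every knockdown culture was below it (log2 difference of the ratio -0.94, SD 0.46 in knockdown and 0.05 in control cultures). Slc1a2 counts were also 14.1%, 15.8% and 9.86% of the Aldoc counts in knockdown cultures, against 24.0%, 20.8% and 20.4% in control cultures. Each member was also set against the mean log2 level of the 10 members in the same library, itself included. On that scale Slc1a2 stood at -2.43, -2.10 and -2.38 in knockdown cultures, against -2.0, -1.82 and -1.60 in control cultures. Its groups did not overlap there. No share over all genes was computed for that scale, so how often a gene would be separated on it is not known. In knockdown replicate 2, the culture with the least astrocyte marker RNA, this relative level of Slc1a2 was the highest of the 3 knockdown cultures. The ratio of Slc1a2 to Slc1a3 was the lowest in that same culture, at 2.81%.

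Of the 45 pairs of members, 6 had ratios that did not overlap between the groups, 13.3%, where 16.8% of all pairs of genes with at least 10 counts in every library were separated and the share of member pairs was thus not above the background. The 6 pairs were examined after their values were seen, share genes with each other and carry no test. They were Slc1a2 with Slc1a3, Aldoc and Sox9, Aqp4 with Aldoc and Sox9, and Gja1 with Glul. Gja1 counts were 18.9%, 10.6% and 17.5% of the Glul counts in knockdown cultures, against 35.6%, 20.6% and 27.6% in control cultures. Aqp4 counts were 58.6%, 54.9% and 57.2% of the Aldoc counts in knockdown cultures, against 122%, 116% and 62.3% in control cultures, where control replicate 3 was near the knockdown values.

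**Figure D4:**
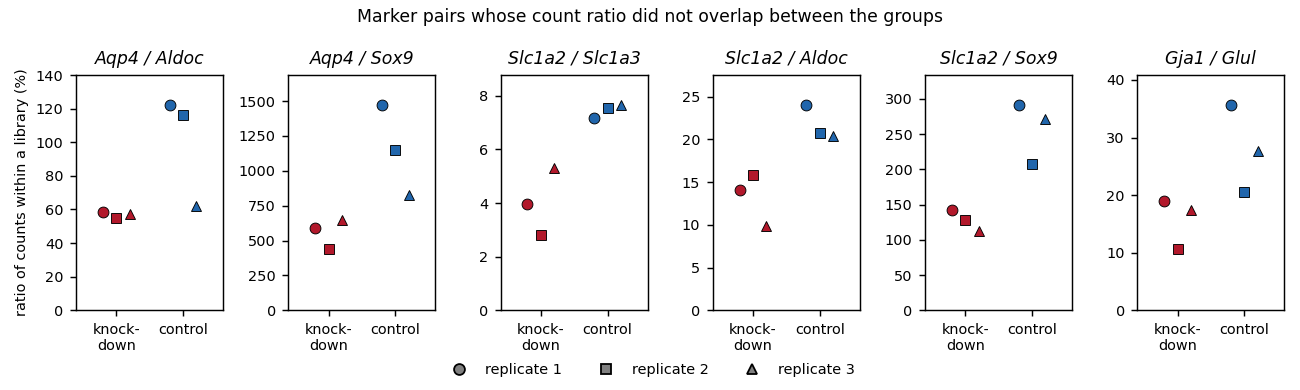
Ratio of the counts of 2 markers within each library in percent (y axis, from 0) for the 6 of 45 pairs that did not overlap between the groups, with the knockdown cultures left of the control cultures in each panel. Slc1a2 / Slc1a3 runs from 2.81% to 5.31% in knockdown and from 7.17% to 7.65% in control cultures.

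Genes outside the 10 were ranked by how closely they followed them across the 6 cultures. Likeness was measured as the root mean square difference, in log2 units, between a gene's centred log2 level and the mean profile of the 10 members. Its median over 10004 named genes was 0.787, and over the members themselves it ran from 0.275 (Aldoc) to 0.742 (Gja1). The nearest gene was Atp1b2, the glial beta subunit of the sodium pump, at 0.062, and Tril, a receptor accessory protein of astrocytes, stood at 0.111. These 2 were in the list of other astrocyte-enriched genes. The rest of the nearest 10 were Scml4 (0.083), Sfrp2, a secreted Wnt modulator (0.09), Pla2g16 (0.115), Zbtb7c (0.117), Plxnb1, a semaphorin receptor (0.12), Abat, the GABA transaminase (0.129), Mmp14, a membrane-bound matrix metalloproteinase (0.142) and Sfxn5 (0.147).

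In further genes of astrocytes, edgeR called 0 genes of any list described here. At an unadjusted edgeR p under 0.05, 3 of the other astrocyte-enriched genes were on the lower side (7.14% of all genes). Also on that side were 1 gene of the secreted factors and 1 of the radial glia and fate genes. On the higher side was 1 reactive astrocyte gene (3.69% of all genes), and the uptake and gap junction lists had 0. Of 33 other astrocyte-enriched genes tested, 28 had a lower and 5 a higher mean in knockdown cultures, and their median was -0.41 and was 0.17 without knockdown replicate 2 and control replicate 1. Agt, angiotensinogen, which astrocytes make in the brain, had 6.23, 2.29 and 12.5 CPM in knockdown cultures, against 32.7, 17.0 and 34.6 CPM in control cultures. All knockdown cultures were below the controls, and Agt was the single gene of this list called by DESeq2 (log2 fold change -2.01, SE 0.56, edgeR adjusted p = 0.347, DESeq2 adjusted p = 0.0195). Over all genes DESeq2 called 1.07% as lower. Slc7a10, the Asc-1 amino acid transporter, had 10.5, 4.75 and 11.0 CPM in knockdown cultures, against 16.5, 17.3 and 15.1 CPM in control cultures (log2 fold change -0.90, SE 0.34, edgeR adjusted p = 0.419). Htra1, a secreted protease, had 24.9, 10.1 and 15.7 CPM in knockdown cultures, against 27.5, 34.8 and 36.4 CPM in control cultures (log2 fold change -0.96, SE 0.34, edgeR adjusted p = 0.408). With Slc4a4, a bicarbonate cotransporter, 4 of the 33 were separated with knockdown lower and 0 with knockdown higher (10.2% and 7.42% of all genes).

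Of 13 genes of glutamate and GABA uptake and the glutamine cycle, 9 had a lower mean and 4 a higher one (median -0.30). Of the 13, 4 were separated with knockdown lower (10.2% of all genes), Slc38a3, Slc1a4, Slc38a2 and Slc1a6. With knockdown higher it was 1 (7.42% of all genes). Slc38a3, a glutamine transporter of astrocytes, had 178, 78.3 and 180 CPM in knockdown cultures, against 293, 209 and 211 CPM in control cultures (log2 fold change -0.71, SE 0.33, edgeR adjusted p = 0.482). Got2, mitochondrial aspartate aminotransferase, was separated the other way, with 295, 346 and 310 CPM in knockdown cultures, against 209, 255 and 262 CPM in control cultures (log2 fold change 0.39, SE 0.19, edgeR adjusted p = 0.498). Of 14 genes of gap junctions, water and potassium handling, which include Aqp4 and Gja1, 13 had a lower mean (median -0.45). The median was -0.19 without knockdown replicate 2 and -0.09 without control replicate 1 as well. Of these 14 genes, the connexin Gjb2 and Slc4a4 were separated with knockdown lower (10.2% of all genes). Gjb2 was near the floor, with means of 0.69 CPM in knockdown and 1.57 CPM in control cultures and 4 counts in knockdown replicate 2. The means of Slc4a4 were 64 and 107 CPM.

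Of 10 genes for secreted factors of astrocytes linked to synapses, not all of which promote synapse formation, 10 had a lower mean in knockdown cultures. The share over all genes was 52.4%. Their median was -0.50, and it was -0.19 without knockdown replicate 2 and control replicate 1. Thbs2, a thrombospondin, had 1.79, 0.346 and 2.35 CPM in knockdown cultures, against 5.67, 3.36 and 3.67 CPM in control cultures (log2 fold change -1.52, SE 0.62, edgeR adjusted p = 0.433). Gpc4, a glypican, had 57.8, 37.8 and 58.3 CPM in knockdown cultures, against 107, 65.4 and 62.4 CPM in control cultures (log2 fold change -0.61, SE 0.28, edgeR adjusted p = 0.477). Both were separated with knockdown lower, as 10.2% of all genes were, and thrombospondins and glypicans are also made by other cells. Of 19 markers and factors of radial glia and astrocyte fate, 14 had a lower and 5 a higher mean (median -0.22, and 0.11 without the same 2 cultures). Nfib, an NFI family member, had 38.3, 32.7 and 57.7 CPM in knockdown cultures, against 70.7, 57.0 and 73.3 CPM in control cultures, with overlap of the groups (log2 fold change -0.64, SE 0.26, edgeR adjusted p = 0.427).

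Of 22 genes of reactive astrocytes tested, 12 had a higher and 10 a lower mean in knockdown cultures, with a median of 0.11 that was 0.80 without knockdown replicate 2 and control replicate 1. Psmb8, an interferon-induced proteasome subunit, had 12.6, 3.81 and 19.9 CPM in knockdown cultures, against 3.49, 3.44 and 1.98 CPM in control cultures, and was called by DESeq2 and not by edgeR (log2 fold change 2.03, SE 0.57, edgeR adjusted p = 0.347, DESeq2 adjusted p = 0.0153). Over all genes DESeq2 called 0.251% as higher. Lcn2, lipocalin 2, was high in knockdown replicate 1 alone, with 35.1, 2.18 and 1.99 CPM in knockdown cultures, against 3.82, 2.62 and 1.11 CPM in control cultures (log2 fold change 2.37, SE 1.09, edgeR adjusted p = 0.477).

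**Figure D5:**
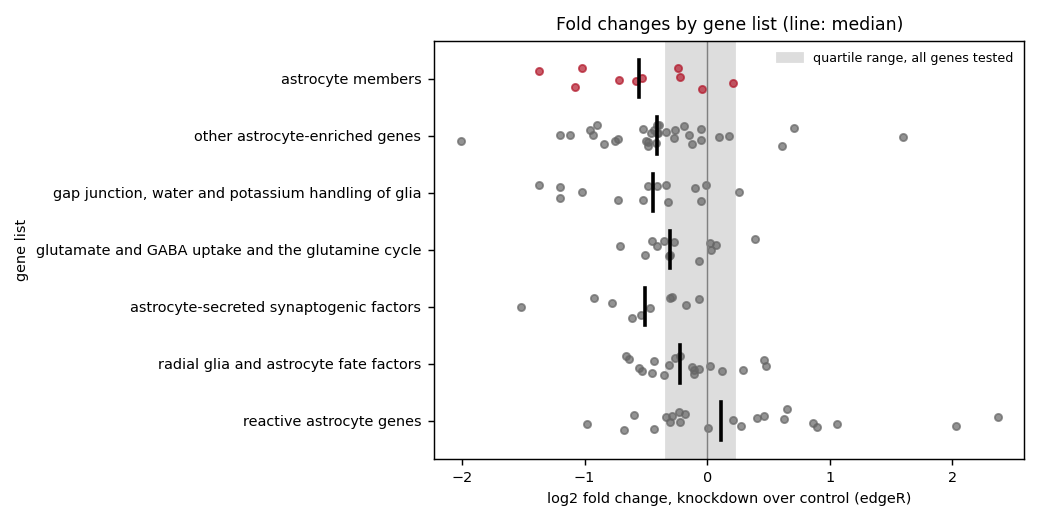
Log2 fold change of knockdown over control (x axis) of each gene in the astrocyte markers (red, top row) and 6 further lists of astrocyte genes (rows), with the median of each list as a black line and the range between the quartiles of all genes tested in grey, from -0.34 to 0.23. The medians run from -0.56 for the markers to 0.11 for reactive astrocyte genes. The list labelled synaptogenic also holds genes that do not promote synapse formation.

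Markers of microglia followed some of the same cultures, and the part of other cells in the astrocyte values was not tested. The summed level of 11 microglia markers was 1.07 to 7.53 CPM in knockdown and 6.71 to 87.3 CPM in control cultures, with knockdown replicate 2 lowest and control replicate 1 highest, as for the members. The mean was lower for all 7 of these markers that were tested, with a median of -3.53 that was -1.28 without control replicate 1, -2.94 without knockdown replicate 2 and -0.84 without both. With all cultures 2 of these 7, Ctss and Tyrobp, were called lower by DESeq2 (1.07% of all genes). The same 2 were separated with knockdown lower (10.2% of all genes). Itgam, Cx3cr1, P2ry12, C1qc and Tyrobp were at 0 in at least 1 library. Of 6 fibroblast and mural markers 5 had a lower mean (median -1.32, and -1.02 without both cultures). Of these 6 markers, 4 were separated with knockdown lower (10.2% of all genes). The summed levels of the list were 150 to 314 CPM in knockdown and 167 to 230 CPM in control cultures. In knockdown cultures they came mostly from the 1 marker with a higher mean. The 3 endothelial markers tested had a median of -0.52 (-0.25 without both cultures) and sums of at most 5.10 CPM in knockdown and 22.1 CPM in control cultures. Oligodendrocyte lineage markers were 6 higher and 6 lower (median 0.02), with sums of 692 to 2271 CPM in knockdown and 630 to 1833 CPM in control cultures. Of 13 neuron markers 8 had a lower mean (median -0.19, and -0.42 without both cultures), and 1 had its lowest level in knockdown replicate 2. Of 8 proliferation genes 3 had a lower mean (median 0.30), and 0 had their lowest level in that culture.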

How the data were processed

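The deposited values are raw counts of reads per Ensembl gene, which the authors made from single-end TruSeq v2 libraries with CASAVA 1.8.2, FastQC 0.10.0, STAR 2.3.0 on rn5, SAMtools 1.2 and HTSeq 0.6. The kit does not keep strand, and the HTSeq strand and overlap settings and the Ensembl release were not given in the sources used here. No member overlapped another gene of the table. All 6 libraries, grouped by their labels, entered the main fit, with condition as the single term. Counts were tested in R 4.3.3 with edgeR 4.0.16 (TMM, filterByExpr with a minimum of 10 counts, quasi-likelihood test, Benjamini-Hochberg over 13917 genes, threshold 0.05), with DESeq2 1.42.0, the tool of the study, and limma 3.58.1 voom as further tests. Profiles are log2(CPM + 0.5), so they understate differences of low genes. Levels were not read as amounts of one gene against another, because gene lengths in the table include introns. Ratios of 2 members, and levels relative to the mean of the members, were compared between libraries only. Total counts were at least 13061705 in every library, and no 2 libraries agreed within counting noise (chi-square per degree of freedom at least 63.9). The p-values measure the spread between these cultures.

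The members and the gene lists were chosen with earlier results of these data known. Named genes are the 10 members, Magi2, at most 4 genes of each other list with the smallest edgeR p, and the 10 genes of at least 5 CPM with the most similar profile. Genes named because they were separated between the groups or listed at 0 (Slc1a6, Itgam, Cx3cr1, P2ry12, C1qc) were chosen after their values were seen. List genes not matched (Dio2, Hepacam, Gpc6, Fn1, Acta2, Mki67) were not analysed here. Promoter windows are from RefSeq (GRCr8). Alternatives were other tests, normalizations and filters, a replicate block and leaving out cultures.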

Additional observations from a re-analysis of the deposited data

How the results depend on the processing

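Over 24 alternatives, the members' log2 fold changes kept their direction in 214 of 240 values, and those of Aqp4, Slc1a2 and Gja1 kept it in all 24. Changing the normalization or the filter on low counts reversed no member and called none. Other tests reversed Aldh1l1 alone, at -0.06 by limma-voom. Leaving out cultures moved the median of the members between -0.91 and 0.26 and the number with a lower mean between 3 and 10. It moved the log2 fold changes of members between -0.61 and 0.72 (Aldh1l1), -0.70 and 0.30 (Aldoc), -0.89 and 0.70 (Gfap), -1.14 and 0.39 (Glul), -1.24 and 0.10 (S100b), -0.45 and 0.21 (Slc1a3) and -0.39 and 0.40 (Sox9). Genes of the other lists called lower and higher (0 and 0 by edgeR) numbered 3 and 1 with DESeq2, 2 and 1 with DESeq2 and a fold change prior, and from 0 to 15 and from 0 to 5 without single cultures or the pair. Over all genes DESeq2 called 195 (1.07% lower and 0.251% higher), and 184 with the prior. The fit that gave 15, DESeq2 without knockdown replicate 3, called 736 over all genes. The fit that gave 5, DESeq2 without the pair, called 116. Magi2 was past the threshold with DESeq2 at -1.44, with its prior at -1.19 and with edgeR's likelihood ratio test at -1.46, and without single cultures or the pair it ran from -1.71 to -1.22. Replicates 1 to 3 of both groups also share a number in the column names of the count table (12, 29 and 5), and no source used here says whether it marks a shared culture preparation. Same-numbered deviations from the group means correlated at 0.635, 0.097 and -0.099 across genes, and not every library correlated best with its own number, so the main comparison was left unpaired and a pairing by preparation cannot be told from these data. Slc1a2, Slc1a3, S100b, Gja1 and Glul were lower in knockdown in every same-numbered pair (5 of 10 members, where 19.3% of all genes were). With the replicate block edgeR called 0 members, and DESeq2 called 2 as lower, Gja1 at -1.59 (adjusted p = 0.000699) and Slc1a2 at -1.16 (adjusted p = 0.00866), with 16 lower and 1 higher genes of the other lists and Magi2 at -1.48 (background of the blocked DESeq2 fit 1.64% lower and 0.376% higher). The cause of these differences was not tested. Every member had at least 278 counts in every library.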
